A study of Danio rerio with 4 samples.

Results

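Wnt proteins are secreted, lipid-modified ligands that bind Frizzled receptors. In the canonical branch they protect the co-activator beta-catenin from a destruction complex built on Axin, and beta-catenin then activates target genes together with HMG-box proteins of the TCF/LEF family. In the non-canonical branch they steer cell movements, such as the convergence and extension that lengthen the embryo. In the zebrafish embryo, maternal beta-catenin helps to start the dorsal organizer, zygotic Wnt signalling then patterns the ventral and lateral margin and the posterior neural plate, and by the end of gastrulation Wnt target genes are active in the tailbud.

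Expression was followed for 10 Wnt pathway genes picked by name, of 28697 gene symbols in all. The ligand genes were wnt3a, wnt5b and wnt11, the genes for DNA-binding effectors were lef1 and tcf7, and the genes commonly read as targets were axin2, nkd1, notum1a, sp5a and sp5l. The gene lef1 is also a known target. All 10 symbols were found in the deposited tables, and none was chosen by a cut on its level. The symbol wnt11 stands here for the gene that the reference table now calls wnt11f2, with silberblick (slb) among its synonyms, because the deposited tables also list wnt11r, which the reference table now calls wnt11. No sequence of these genes is printed, since only gene name tables were used here.

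The libraries came from whole zebrafish embryos (Danio rerio), each from a pool of 50, in a study of the RNA-binding protein Rbm14 in dorsoventral patterning. Control embryos received 8 ng of a ctrl morpholino, an antisense oligomer, and knockdown embryos 4 ng of an rbm14a plus 4 ng of an rbm14b morpholino, in 2 nl at the 1-cell stage. Every embryo, controls included, also carried 300 pg of GFP mRNA as an injection marker, and pools were taken at 10 and 24 hours post fertilization (hpf). The strain, the kind of morpholino and any uninjected or rescue group are not given in the labels used here. Libraries from embryos with the rbm14 morpholinos are called rbm14 morphant libraries.

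With 1 library per group there was no replicate error, so no test was possible and each difference below describes 2 single pools. Levels are in TPM, a transcript abundance per length scaled to a fixed library total, summed over the transcripts of a symbol. Ratios are log2 ratios of TPM + 0.5 after rescaling each pair of libraries to a trimmed mean ratio of 0, which understates differences of genes at low TPM. The shift removed was −0.25 for rbm14 over control at 10 hpf and 0.64 at 24 hpf, and −0.52 in controls and 0.37 with rbm14 morpholinos for 24 over 10 hpf. The size rule asked for a difference of at least 2-fold, which is 1 on the log2 scale, and for 5 TPM or more in the higher library. Between 6305 and 8866 genes per library reached 5 TPM, and sequencing depth is unknown because TPM does not keep it. The targeted genes were detected in every library, with rbm14a at 70.5 to 254 TPM and rbm14b at 19.3 to 28.8 TPM, which neither checks the labels nor measures the knockdown.

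Together the 10 genes held 0.218% of total TPM in control and 0.228% in rbm14 morphant embryos at 10 hpf, against 0.00957% and 0.0145% at 24 hpf. Most of the 10 hpf share was sp5l alone, which ranked 77 by level among all control genes and 69 among those of rbm14 morphants. The genes wnt11 and sp5a stood next, at 125 and 109 TPM with the ctrl morpholino, and at 54.2 and 70.8 TPM in rbm14 morphants. The genes wnt3a, wnt5b and tcf7 stayed under 5 TPM in all 4 libraries.

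**Figure D1:**
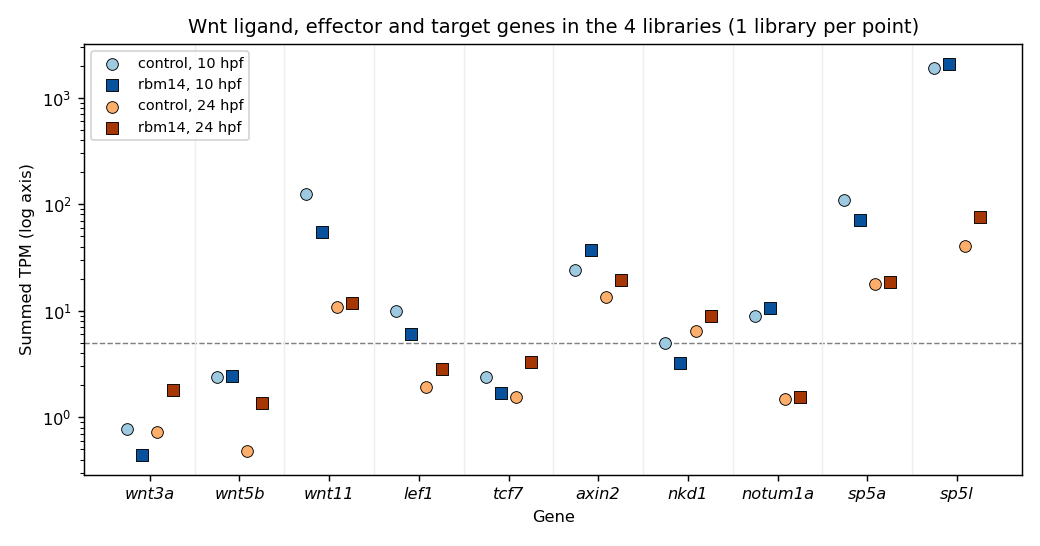
Summed TPM, on a log axis, of each of the 10 genes in the 4 libraries, 1 point per library, with a dashed line at 5 TPM. The points of sp5l run from 40.8 to 2089 TPM, and those of wnt3a, wnt5b and tcf7 all lie below the line.

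At 10 hpf, when gastrulation ends, none of the 10 genes was past the size rule between the rbm14 and the control morpholino library. The ligand gene wnt11 came closest as lower, at 1.92-fold, and the feedback inhibitor gene axin2 came closest as higher, at 1.80-fold. Across all genes that reached 5 TPM in either library, 9.12% were past the rule, 3.57% as higher and 5.56% as lower. Of the 10 genes, 6 reached 5 TPM in at least 1 of these libraries and could have passed. Ratios were above 0 for 4 genes and below 0 for 6, and each of the 10 kept its sign without rescaling.

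The ligand genes were unlike each other at 10 hpf. The wnt11 product, Silberblick, is a non-canonical ligand needed for convergent extension in zebrafish. Its mRNA stood at 125 TPM in control against 54.2 TPM in rbm14 morphant embryos (log2 ratio −0.94). Of the 7321 genes tested, 6.32% had a lower ratio. Without rescaling the ratio was −1.19, or 2.28-fold lower, which is past the rule, as were 9.23% of all tested genes in that direction. The gene wnt5b (pipetail), another non-canonical ligand gene of gastrula movements, was listed at 2.37 and 2.42 TPM (0.23). The gene wnt3a, whose product is a canonical ligand, was listed at 0.77 and 0.44 TPM (−0.30). At such levels these ratios rest on little signal.

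The effector genes lef1 and tcf7, whose proteins recruit beta-catenin to DNA, had ratios below 0 at 10 hpf. The level of lef1 was 10.0 TPM in control against 6.04 TPM in rbm14 morphant embryos (−0.45), and that of tcf7 was 2.37 and 1.69 TPM (−0.19). Counting only its most abundant transcript, the lef1 ratio was −0.84, which is also not past the size rule. The gene tcf7 was under 5 TPM in both libraries and could not have passed.

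The target genes did not share a direction at 10 hpf. Axin2 is a scaffold of the destruction complex and one of the most widely used readouts of canonical signalling. Its mRNA stood at 24.0 TPM in control against 36.7 TPM in rbm14 morphant embryos (0.85), and 94.7% of tested genes had a lower ratio. The gene notum1a, which encodes an extracellular enzyme that removes the lipid from Wnt ligands, also read higher in the rbm14 morphant library, at 8.92 and 10.7 TPM (0.49). The gene nkd1, for a cytoplasmic inhibitor that binds Dishevelled, read lower, at 4.95 and 3.20 TPM (−0.34). The negative-feedback genes axin2, notum1a and nkd1 therefore included both signs. The only one below 0 was nkd1, which was under 5 TPM in both libraries and could not have passed the rule.

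The paralogs sp5a and sp5l encode zinc finger transcription factors that act downstream of Wnt signalling in zebrafish mesoderm and neural patterning. At 10 hpf sp5l stood at 1894 TPM in control against 2089 TPM in rbm14 morphant embryos (0.39), whereas sp5a stood at 109 and 70.8 TPM (−0.37). The sp5l to sp5a quotient of TPM was 17.3 in the control and 29.5 in the rbm14 morphant library. The more abundant paralog thus made up more of the pair in the rbm14 morphant library.

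**Figure D2:**
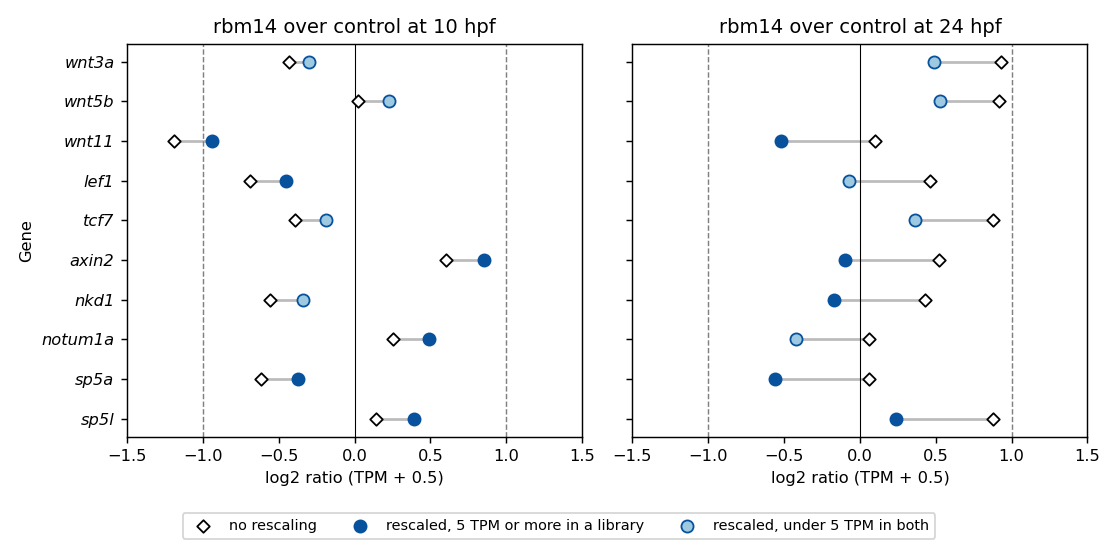
Log2 ratio of the rbm14 over the control morpholino library for each gene at 10 hpf (left) and 24 hpf (right), on TPM + 0.5. Filled circles are rescaled values, pale ones where both libraries were under 5 TPM, diamonds are values without rescaling, and dashed lines mark 2-fold. At 10 hpf wnt11 without rescaling (−1.19) is the only point past 2-fold, and at 24 hpf 6 genes change sign with rescaling.

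At 24 hpf, when the body plan is laid down, none of the 10 genes was past the size rule either, with or without rescaling. Rescaled ratios ran from −0.56 to 0.53, with 4 above 0 and 6 below. Across all genes that reached 5 TPM, 15.9% were past the rule, 7.01% as higher and 8.85% as lower, and 5 of the 10 genes reached that level. Without rescaling all 10 ratios were above 0, so that the direction of 6 genes at this stage depends on the scaling. Those 6 were wnt11, lef1, axin2, nkd1, notum1a and sp5a.

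Among the ligand genes at 24 hpf, wnt11 stood at 10.9 TPM in control against 11.7 TPM in rbm14 morphant embryos (log2 ratio −0.52, and 0.10 without rescaling). The levels of wnt3a were 0.72 and 1.82 TPM (0.49) and those of wnt5b 0.48 and 1.36 TPM (0.53). Both low ligand genes read higher in the rbm14 morphant library whatever the scaling, at levels where TPM is least certain.

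On rescaled values the target genes were again mixed at 24 hpf, and without rescaling all read higher in the rbm14 morphant library. The level of sp5l was 40.8 TPM in control against 75.3 TPM in rbm14 morphant embryos (0.24, and 0.88 without rescaling), and that of sp5a was 17.9 and 18.7 TPM (−0.56). The sp5l to sp5a quotient was again larger in the rbm14 morphant library, at 4.03 against 2.27 in the control. The feedback gene axin2 had 13.5 and 19.5 TPM (−0.10), nkd1 had 6.48 and 8.88 TPM (−0.17) and notum1a had 1.47 and 1.55 TPM (−0.42). The gap seen for axin2 at 10 hpf had no counterpart at 24 hpf on the rescaled values. The effector genes lef1, at 1.92 and 2.82 TPM (−0.07), and tcf7, at 1.55 and 3.28 TPM (0.36), stayed low.

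The 24 hpf ratio minus the 10 hpf ratio was most negative for axin2 (−0.95) and notum1a (−0.91) and most positive for wnt3a (0.78). These differences move with the scaling, since the shift removed had opposite signs at the stages. Without rescaling they were −0.09 for axin2 and −0.19 for notum1a, and 1.29 for wnt11, against 0.42 with rescaling.

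More of the 10 genes were past the size rule between stages than between morpholinos, as was the case across all genes. In the control libraries wnt11, lef1, sp5a, sp5l and notum1a were lower at 24 hpf, past the size rule, and none was higher. In the rbm14 morphant libraries the same 5 genes and axin2 were lower and nkd1 was higher. In both treatments lef1 and notum1a met the 5 TPM minimum only through the 10 hpf library, where they read higher. With rbm14 morpholinos nkd1 met it only through the 24 hpf library, where it read higher. Of all genes tested, 23.1% were past the rule as lower and 29.6% as higher in controls, and 22.1% and 35.4% with the rbm14 morpholinos. In each treatment 7 of the 10 genes reached 5 TPM in at least 1 of the stages. The stage comparisons use the same 4 libraries as those between morpholinos, and their values are given side by side.

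The widest stage gap was that of sp5l, from 1894 to 40.8 TPM in controls (32.0-fold lower) and from 2089 to 75.3 TPM with rbm14 morpholinos (35.5-fold lower). Its paralog sp5a went from 109 to 17.9 TPM (4.17-fold) and from 70.8 to 18.7 TPM (4.76-fold). Both paralogs thus stood lower at 24 hpf in either treatment, and sp5l came down toward the level of sp5a. Of all tested genes, 0.512% had a lower stage ratio than sp5l in controls and 0.544% with rbm14 morpholinos.

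The ligand gene wnt11 went from 125 to 10.9 TPM in controls (7.68-fold lower) and from 54.2 to 11.7 TPM with rbm14 morpholinos (5.75-fold lower). Its paralog wnt11r, not among the 10 genes, ran the other way, from 0.18 to 15.2 TPM in controls and from 0.12 to 23.5 TPM with rbm14 morpholinos. At 24 hpf wnt11r stood above wnt11 in both treatments, at 1.39 times its TPM in the control and 2.01 times in the rbm14 morphant library.

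The effector gene lef1 was 3.17-fold lower at 24 than at 10 hpf in controls and 2.47-fold lower with rbm14 morpholinos, and without rescaling the latter was 1.97-fold and not past the rule. With the most abundant transcript the rbm14 ratio was −1.04 at under 5 TPM, which is not past the rule either. Neither treatment kept its lef1 call with a pseudocount of 5 TPM (−0.87 and −0.66) or a minimum of 20 TPM. For tcf7 the stage ratios were −0.07 and 0.49. The lef1 to tcf7 quotient of TPM was 4.24 in the 10 hpf control and 1.24 in the 24 hpf control, and 3.57 and 0.86 in the rbm14 morphant libraries. At 24 hpf these effector mRNAs thus stood at similar, low levels.

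The feedback genes differed in their course. The gene notum1a was lower at 24 hpf, 3.51-fold in controls and 6.76-fold with rbm14 morpholinos. Without rescaling these folds were 4.78 and 5.45, so most of the gap between treatments depends on the scaling. With a pseudocount of 5 TPM the control call was lost (−0.88, against −1.43 with rbm14 morpholinos). With a minimum of 20 TPM both calls were lost. The stage ratio of axin2 was −0.30 in controls and −1.25 with rbm14 morpholinos, the latter past the rule only after rescaling (−0.90 without). The gene nkd1 went from 4.95 to 6.48 TPM in controls (0.84) and from 3.20 to 8.88 TPM with rbm14 morpholinos (1.01), just past the rule. That call was lost with a pseudocount of 5 TPM (0.57), a minimum of 20 TPM or the most abundant transcript (0.90), and with the last the control ratio was 1.02, so no difference between treatments is shown for nkd1. It was the only one of the 5 target genes with a higher reading at 24 hpf. In whole embryos, fewer cells of a type and less RNA per cell cannot be told apart.

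**Figure D3:**
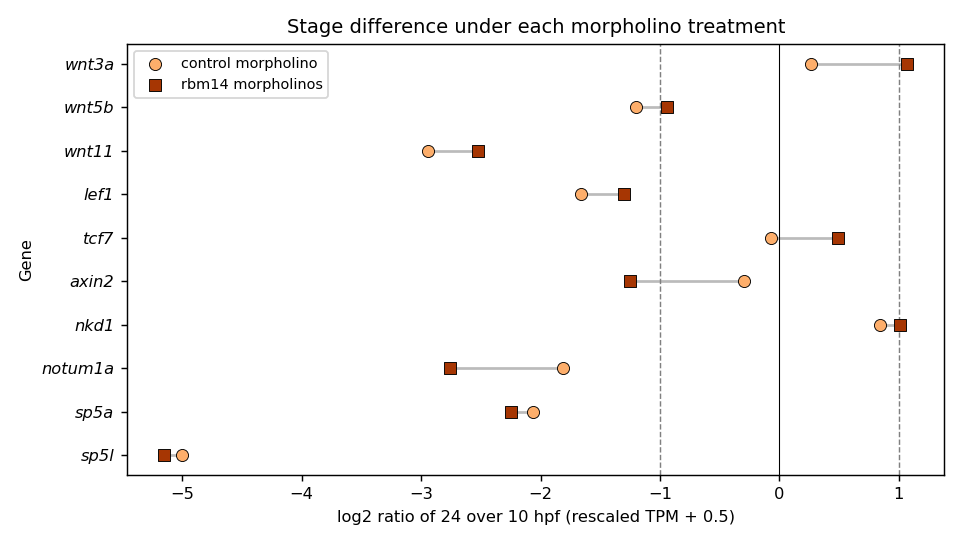
Log2 ratio of 24 over 10 hpf on rescaled TPM + 0.5 for each gene in the control (circles) and rbm14 (squares) morpholino libraries, with dashed lines at 2-fold. The value of sp5l lies near −5 in both treatments, and axin2 and notum1a have the widest gaps between treatments. Those 2 gaps depend on the scaling.

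Markers of embryonic regions that express Wnt targets were read from lists of tailbud and midbrain-hindbrain boundary genes. The 8 tailbud and posterior mesoderm genes summed to 2891 TPM in control against 2919 TPM in rbm14 morphant embryos at 10 hpf, and to 289.9 and 552 TPM at 24 hpf, and none was listed at 0. None was past the rule at 10 hpf, and 2 were higher at 24 hpf, namely tbx16 and cdx4, where 7.01% of all tested genes were higher. Of these, tbx16 (1.93 and 7.08 TPM) met the 5 TPM minimum only through the library where it read higher. At 24 hpf 6 of the 8 rescaled ratios were above 0, and those of ta (−0.52) and eve1 (−0.56) were below 0. These sums are of deposited TPM, from which the shift of 0.64 (log2) at 24 hpf is not removed. The 8 midbrain-hindbrain boundary genes summed to 75.3 and 65.1 TPM at 10 hpf, with 1 listed at 0 in the control and 2 in the rbm14 morphant library. Nearly all of both sums was fgf8a (72.85 and 63.94 TPM), which also stands in the tailbud list. The 10 hpf sums therefore say little about the boundary. At 24 hpf the 8 boundary genes summed to 122 and 152 TPM, with none at 0 and 1 past the rule as lower, eng1b. Of these 8 genes 4 had rescaled ratios above 0 at 24 hpf, none past the rule. Blood markers summed to 26.3 and 9.16 TPM at 10 hpf and to 10550 and 3232 TPM at 24 hpf. Of the 6 blood genes 2 were lower past the rule at 10 hpf and 5 at 24 hpf. The 10 hpf calls, hbae3 (10.49 and 3.54 TPM) and hbbe1.1 (5.22 and 0.1 TPM), reached 5 TPM only in the control. Over all tested genes 5.56% were lower and 3.57% higher at 10 hpf, and 8.85% were lower at 24 hpf. The 6 yolk syncytial genes summed to 272.9 and 137.4 TPM at 10 hpf, with 1 higher and 2 lower past the rule. At 24 hpf they summed to 8061 and 7027 TPM, with 3 lower (tfa, apoa2 and apoea) past the rule. The other 3 had rescaled ratios above 0 at 24 hpf, none past the rule. At 10 hpf mxtx2 (0.61 and 9.99 TPM) and apoba (5.16 and 1.14 TPM) reached 5 TPM only in the library where each read higher. The 5 neuron genes summed to 63.4 and 126.2 TPM at 24 hpf, of which elavl3 alone (23.9 and 78.5 TPM) was higher past the rule, and the other 4 had ratios below 0. The 5 neural progenitor genes summed to 3078 and 3272 TPM at 10 hpf and to 2221 and 2031 TPM at 24 hpf, where all 5 ratios were below 0 and none was past the rule. No gene of the epidermis, somite and forebrain lists was past the rule at either stage. The part of these markers in the values of the 10 genes was not tested.

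Around the 10 genes, 123 other Wnt pathway genes in 9 lists were read the same way. At 10 hpf 58 of them reached 5 TPM, of which 1 was lower, none was higher and 57 lay between, beside 5.56% lower and 3.57% higher over all tested genes. The lower one was fzd3a, a Frizzled receptor gene best known for axon growth, at 13.2 TPM in control against 4.25 TPM in rbm14 morphant embryos (2.44-fold). It met the minimum only through the control library, where it read higher. The call was lost with a pseudocount of 5 TPM or a minimum of 20 TPM. The median ratio of pathway genes with at least 1 TPM was 0.04, beside −0.06 over all genes. By list, the medians ran from −0.48 for 2 ligand secretion genes to 0.15 for other Wnt-responsive genes. The co-activator genes ctnnb1 and ctnnb2, at 1166 and 278 TPM in control against 1197 and 289 TPM in rbm14 morphant embryos, were picked for mention after their values were seen.

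At 24 hpf 71 of the 123 pathway genes reached 5 TPM, with 6 higher, 2 lower and 63 between, beside 7.01% higher and 8.85% lower over all tested genes. The median was 0.20, beside 0.08 over all genes. The higher genes were the ventrolateral ligand gene wnt8a (2.13 and 11.6 TPM, 3.09-fold) and the posterior homeobox gene cdx4 (20.5 and 93.9 TPM, 2.90-fold). So were the secreted antagonist gene draxin (1.95 and 8.43 TPM, 2.47-fold) and the R-spondin receptor gene lgr4 (2.04 and 8.42 TPM, 2.38-fold). The others were the polarity gene prickle1a (2.59 and 9.89 TPM, 2.26-fold) and dact2 (9.6 and 33.15 TPM, 2.17-fold), whose product binds Dishevelled. The genes wnt8a, draxin, lgr4 and prickle1a reached 5 TPM only in the rbm14 morphant library. They thus met the minimum only through the library where they read higher. The lower genes were the homeobox gene gbx1 (25.3 and 12.6 TPM, 3.04-fold) and fzd9b (2.20-fold). The gene cdx4 also stands in the tailbud marker list. Without rescaling 22 pathway genes were higher and none was lower, where 27.0% of all tested genes were higher.

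**Figure D4:**
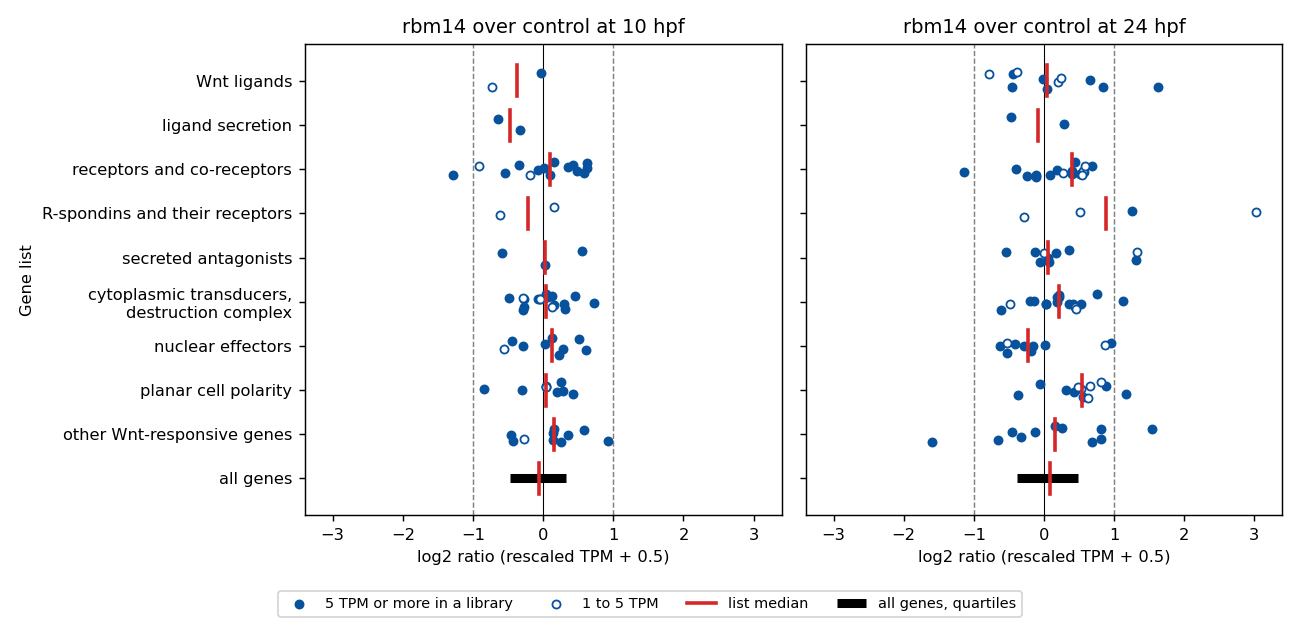
Log2 ratio of the rbm14 over the control morpholino library for 123 further Wnt pathway genes, where at least 1 TPM was reached in either library, by list at 10 hpf (left) and 24 hpf (right). Filled points reached 5 TPM, red bars are medians, the black bar spans the quartiles of all genes and dashed lines mark 2-fold. At 10 hpf only fzd3a lies past 2-fold, and at 24 hpf the medians run from −0.23 for nuclear effectors to 0.89 for R-spondins and their receptors. The latter median is of 4 genes, of which 1 reached 5 TPM.

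Between stages, 32 pathway genes were lower at 24 hpf and 15 higher of 68 tested in controls, where 23.1% of all tested genes were lower and 29.6% higher. With rbm14 morpholinos 28 were lower and 21 higher of 75, where the all-gene shares were 22.1% and 35.4%. Many of these genes met the 5 TPM minimum only through the stage where they read higher. Examples in controls are wnt10b (0.05 and 8.17 TPM at 10 and 24 hpf) and ror2 (9.05 and 0.95 TPM). The split depends on the 5 TPM minimum, and without it 32 were lower and 32 higher in controls, and 28 lower and 44 higher with rbm14 morpholinos. These latter counts include genes at low TPM. No all-gene share was taken without the minimum, so they have none beside them. The 21 higher genes with rbm14 morpholinos include wnt1, wnt10b and wnt16, named after their values were seen. They were listed at 0 in the 10 hpf rbm14 morphant library, so that no fold is given for them. Of 5 listed ligand genes tested in controls 4 were higher and 1 lower, and of 7 with rbm14 morpholinos 6 and 1. The lower one was wnt8a, from 324 to 2.13 TPM in controls (88.6-fold lower, and 28.3-fold with rbm14 morpholinos). The gene wnt10b went from 0.05 to 8.17 TPM in controls. The receptor gene fzd8b went from 315 to 13.1 TPM in controls (16.2-fold lower, and 17.1-fold with rbm14 morpholinos). The secreted antagonist gene frzb went from 92.3 to 0.26 TPM (95.5-fold lower, and 40.8-fold), where the size of the fold depends on the 0.5 TPM added. Of 7 such antagonist genes tested in controls 4 were higher and 3 lower, and of 9 with rbm14 morpholinos 6 and 2. In controls sfrp2 was 20.3-fold and sost 16.6-fold higher, both with 5 TPM only at 24 hpf. Of 11 other Wnt-responsive genes tested in controls, 4 were higher, such as gbx2 (39.9-fold), and 5 lower, such as cdx4 (19.2-fold). The repressive TCF gene tcf7l1b was 4.15-fold lower in controls and 2.52-fold lower with rbm14 morpholinos. Among the listed ligand genes past the rule, only wnt8a thus shared the direction of sp5l and wnt11. The genes wnt10b and wnt11r were among those that read higher at 24 hpf.

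The gene sums hide differences among transcripts. The main axin2 transcript, ENSDART00000162413, stood at 23.7 (control) and 33.3 TPM (rbm14 morphants) in the 10 hpf pools, and the later pools had 13.5 and 19.1 TPM. The minor ENSDART00000171441 was listed at 0.28 and 3.47 TPM in the same order, then at 0 and 0.43 TPM, and held 1.17% and 9.44% of the gene at 10 hpf. The minor transcript therefore took a larger part of axin2 in the rbm14 morphant library, but most of the 10 hpf gap lay in the main transcript.

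Of lef1, the transcript ENSDART00000164936 stood at 7.20 and 3.18 TPM at 10 hpf and ENSDART00000132405 at 2.84 and 2.86 TPM. The lower lef1 sum in the rbm14 morphant library at 10 hpf was thus in the former alone, whose part of the gene was 71.7% and 52.6%. At 24 hpf that part was 67.7% and 59.2%. Of sp5a, ENSDART00000102900 had 83.8 and 53.2 TPM early, then 15.5 and 12.1 TPM, and ENSDART00000056267 had 25.6 and 17.5 TPM early, then 2.42 and 6.58 TPM. In the 24 hpf pools the unrescaled levels of the sp5a transcripts thus differed in opposite directions between treatments. Of nkd1, ENSDART00000173523 held 76.8% and 84.7% of the gene at 10 hpf and 89.2% and 77.7% at 24 hpf. The authors' way of splitting reads among transcripts is not given in the sources used here, so these parts are uncertain.

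**Figure D5:**
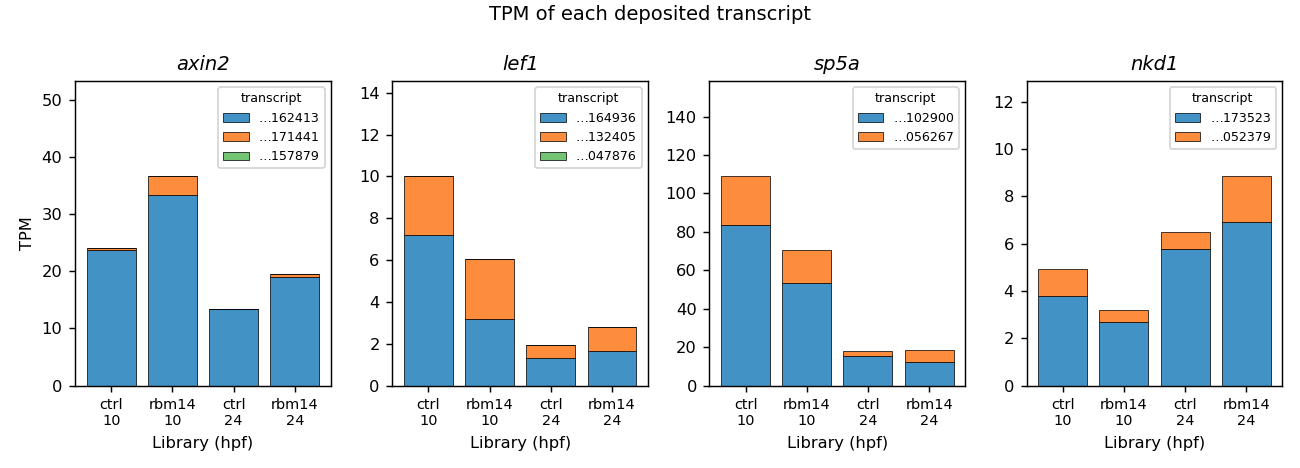
TPM of each deposited transcript of axin2, lef1, sp5a and nkd1, stacked to the gene sum, in the 4 libraries, with transcripts named by the last digits of their Ensembl ID. The minor axin2 transcript reaches 3.47 TPM in the 10 hpf rbm14 morphant library and 0.28 TPM in its control.

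The remaining transcripts were few or low. The genes wnt11, notum1a and sp5l have 1 deposited transcript each. A single transcript held 98.9% to 100% of wnt3a, and of wnt5b a single one held the whole level at 10 hpf and 64.6% and 74.3% at 24 hpf. Of 7 tcf7 transcripts none exceeded 1.15 TPM, and 2 were listed at 0 in all 4 libraries.

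The genes whose course over the 4 libraries was most like that of axin2 were znf408, nol12 and nsrp1. Likeness was the Euclidean distance between centred log2 profiles, over 10052 genes with at least 5 TPM in a library, and these distances were 0.037, 0.08 and 0.11. The gene nol12, for example, stood at 24.9, 35.2, 13.5 and 19.3 TPM in the order control and rbm14 at 10 hpf, then control and rbm14 at 24 hpf. For wnt11 the nearest were crp6, fasn and si:dkey-65j4.2, at distances of 0.165, 0.302 and 0.315. With 4 points per profile many genes can lie close, so the nearest genes are a description only.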

How the data were processed

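The authors deposited TPM per Ensembl transcript, a unit inferred because values have decimals and add up to 1000000 over the 57596 transcripts of every library. The submitters' processing notes name HISAT2 2.0.1 and HTSeq 0.6.1, Trimmomatic 0.30 and the GRCz10 build without their roles. The sources used here do not give the annotation release, strand setting or transcript estimator. TPM were summed by symbol (14320 of 28697 symbols had more than 1 transcript). For each pair of libraries the log2 ratios of genes that reached 1 TPM in both were averaged without weights after removing 30% of ratios and 5% of levels from each end. This shift was split evenly between both libraries before 0.5 TPM was added. Scripts ran in Python 3.11.15 with pandas 2.3.3 and were tested on simulated data. No test was run. Of 138 pathway gene names, 123 genes were matched, 1 of them by synonym (tle2a as tle2). List medians used genes with at least 1 TPM in either library. The genes, the lists and the rule for naming (up to 3 genes past the rule per list and comparison, by absolute ratio) were chosen with earlier results of these data known. Alternatives covered scaling, pseudocount, TPM minimum and the most abundant transcript.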

Additional observations from a re-analysis of the deposited data

Results flagged for a closer look

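In 2 of the 10 genes the rbm14 over control ratio had opposite signs at the stages under every alternative run. This agreement was in large part fixed by the settings. A changed pseudocount or TPM minimum cannot change a sign, and the median-of-ratios shift was close to the main one. For wnt3a the log2 ratio was −0.30 at 10 hpf and 0.49 at 24 hpf, and for tcf7 it was −0.19 at 10 hpf and 0.36 at 24 hpf. The difference between stages was not tested, since there was 1 library per group, and both genes were under 5 TPM in all 4 libraries.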

How the results depend on the processing

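Over 280 ratios of the 10 genes under 7 alternatives, 256 kept their sign and their side of the size rule, and none past the rule changed sign. Of the rest, 13 were no longer past the rule, 4 came to be past it and 7 others changed sign, all without rescaling. The count of 256 is in part fixed by the settings. A changed TPM minimum leaves every ratio as it was, so no sign could change there. A changed pseudocount alters the size of a ratio but cannot change its sign. The median-of-ratios shift was close to the main one (0.65 against 0.64 at 24 hpf). Without rescaling, 1 gene (wnt11, lower) was past the rule at 10 hpf in place of 0, and pathway genes past it numbered 2 in place of 1 at 10 hpf and 22 in place of 8 at 24 hpf. With a pseudocount of 5 TPM the pathway counts were 0 at 10 hpf and 2 at 24 hpf, and 3 of the 10 genes were past the rule between control stages in place of 5. With a minimum of 20 TPM the pathway counts were 0 and 4, and 3 of the 10 genes were past the rule between control stages and 4 in place of 7 between rbm14 stages. That minimum tests fewer genes. The larger pseudocount makes ratios of genes at low TPM smaller in size, as for lef1 between control stages (−1.66 and then −0.87). Leaving out the rescaling leaves the shift between the libraries in every ratio. No all-gene share was taken with the changed pseudocount or TPM minimum, so these counts have none beside them. Scaling also moves the split of all genes past the rule. The higher part was 39.1% at 10 hpf and 18.7% without rescaling, and 44.2% and 90.8% at 24 hpf. It was 56.2% and 38.2% between control stages, and 61.6% and 73.0% between rbm14 stages. No paired analysis was possible because each group has 1 library and no test was run. Unknown depth limits the low genes most.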

Other observations

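Some pathway genes under 5 TPM in both 24 hpf libraries had wide ratios, and those named here were chosen after their values were seen. The gene rspo1, for a secreted R-spondin that strengthens Wnt signalling, had 0.03 TPM in control against 4.81 TPM in rbm14 morphant embryos at 24 hpf, a log2 ratio of 3.02. Its 10 hpf levels were 0.07 and 0.10 TPM, and the size of its 24 hpf ratio depends on the 0.5 TPM added. The secreted antagonist gene frzb, at 92.3 and 79.0 TPM at 10 hpf, was listed at 0.26 and 1.94 TPM at 24 hpf (1.32). That ratio also depends on the TPM added.

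Levels of genes with 1 deposited transcript can be set beside those of genes with more. Among genes with at least 1 TPM in a library, the median level in the 10 hpf control was 3.27 TPM over 6545 genes with 1 transcript and 4.23 TPM over 9212 genes with more. In the 24 hpf rbm14 morphant library these medians were 5.55 and 7.17 TPM.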
